A study of Homo sapiens with 14 samples.

Results

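The origin recognition and licensing factors are 10 genes that mark replication origins, load the replicative helicase onto them or control its loading or activation. These are *ORC1*, *ORC2*, *ORC3*, *ORC4*, *ORC5*, *ORC6*, *CDC6*, *CDT1*, *GMNN* (geminin) and *DBF4*. They were matched by gene symbol, and all 10 were found among the 26732 genes listed for both cell lines. RNA of A549 and H1792, which are established lines of human lung adenocarcinoma, was sequenced 48 h after addition of DMSO or of 0.1 µM AMG900, which inhibits all aurora kinases. The groups are A549 with DMSO (n = 4), A549 with AMG900 (n = 4), H1792 with DMSO (n = 3) and H1792 with AMG900 (n = 3). A549 was grown in DMEM and H1792 in RPMI, so line, medium and sequencing depth cannot be told apart in any comparison between lines. Each comparison rests on 1 dose, 1 time and 1 line of each kind. The labels call the libraries replicates without saying whether cultures were set up independently, so the p-values measure the spread between these libraries, which may be technical.

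An origin is licensed when the six-part origin recognition complex (ORC) binds DNA and, with CDC6 and CDT1, loads the MCM helicase in late mitosis and G1. ORC1 is the subunit whose abundance cycles in human cells, whereas ORC2 to ORC5 form a more stable core and ORC6 is loosely attached. After S phase begins, geminin binds CDT1 and blocks further loading, and CDT1 itself is degraded. DBF4 is the regulatory subunit of the CDC7 kinase, which phosphorylates loaded MCM so that an origin can fire. Many genes of this pathway are known targets of E2F transcription factors. The aurora kinases that AMG900 inhibits act later, in chromosome segregation and cytokinesis.

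Total counts on listed genes ran from 4248944 to 18940099 in the 8 A549 libraries and from 42760874 to 79902934 in the 6 H1792 libraries, so a change of a weakly expressed gene is measured more closely in H1792. A549 DMSO replicate 1 was the smallest library, and members with few reads rest there on as little as 12 counts (*ORC4*). No library repeats another: within a group, pairs differed with a chi-square of 3.31 to 48.3 per gene. In A549 with DMSO, pairs with replicate 1 had values of 13.8 to 16.6 and the other pairs 3.31 to 4.75. Levels are given as CPM, the counts of a gene scaled to a common library size, here with TMM factors over all 14 libraries. The 6 epithelial markers summed to 7540 to 9800 CPM in A549 with DMSO and to 1570 to 1980 CPM in H1792 with DMSO, mostly from the keratins *KRT7*, *KRT8* and *KRT18*. *CDH1* averaged 21.9 CPM in A549 and 0.697 in H1792, and *EPCAM* 0.287 and 3.48. The 5 lung lineage markers, *NKX2-1* and surfactant genes among them, summed to at most 2.12 CPM in any library. The 5 fibroblast markers summed to 0.649 to 1.11 CPM in A549 with DMSO and to 1460 to 1800 CPM in H1792 with DMSO, where *COL1A2* led. With AMG900, the 5 epithelial markers tested in A549 were all higher (summed 10700 to 12600 CPM), and 1 of 6 was in H1792 (1980 to 2030 CPM). Of the fibroblast markers, 4 of 5 were lower with AMG900 in H1792 (1030 to 1120 CPM, median log2 fold change -0.53), and none was tested in A549 (1.13 to 1.73 CPM). *CD68*, the 1 immune marker tested, was higher with AMG900 in both lines (log2 fold change 1.09 and 0.78), while *PTPRC* and *CD3E* were at or near 0. The 3 endothelial markers summed to at most 16.5 CPM in any library, and 2 of them were higher with AMG900 in H1792. Of all genes tested, 17.2% were higher with AMG900 in A549 (FDR below 0.01), and 16.2% were higher and 18.8% lower in H1792. The 1 of 6 epithelial markers higher in H1792 is close to that share. The part of these marker differences in the results was not tested. Since every value is relative to the RNA of the whole culture, fewer cells in a cell cycle phase and less RNA per cell cannot be told apart.

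The members lie on 6 chromosomes of GRCh37, the build of the counts. *ORC1* is at chr1:52838501-52870095, *CDC6* at chr17:38444131-38460909 and *CDT1* at chr16:88870197-88875666. *ORC6* is also on chromosome 16 (46723555 to 46732306), *ORC2* and *ORC4* on chromosome 2, *ORC3* and *GMNN* on chromosome 6, and *ORC5* and *DBF4* on chromosome 7. Exons of *ORC4* share 431 bases with *ACVR2A* and 157 with *MBD5*, and exons of *DBF4* share 145 bases with *SLC25A40*, all on the opposite strand. The strand setting of the counting is not given in the sources used here, so reads from these stretches may be assigned to either gene or to none. Exons of *ORC2* share 256 bases with a long noncoding RNA gene on the opposite strand, which was not found among the listed genes. Reads of that gene could also be counted for *ORC2*. *ORC1* has 1 annotated pseudogene and *DBF4* has 3, with which reads could be shared.

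The promoter windows below are those of the 3 members that fell most in A549 and, for contrast, of *ORC6*, which also fell there. Each runs from 250 bases before to 50 bases after the RefSeq transcription start on GRCh38.p14, 5′ to 3′ on the strand of the gene, and capitals mark matches to the 7-letter E2F core described in the next paragraph. *ORC1* is at chr1:52404374-52404673, minus strand, *CDC6* at chr17:40287629-40287928, plus strand, *CDT1* at chr16:88803539-88803838, plus strand and *ORC6* at chr16:46689409-46689708, plus strand.
ORC1: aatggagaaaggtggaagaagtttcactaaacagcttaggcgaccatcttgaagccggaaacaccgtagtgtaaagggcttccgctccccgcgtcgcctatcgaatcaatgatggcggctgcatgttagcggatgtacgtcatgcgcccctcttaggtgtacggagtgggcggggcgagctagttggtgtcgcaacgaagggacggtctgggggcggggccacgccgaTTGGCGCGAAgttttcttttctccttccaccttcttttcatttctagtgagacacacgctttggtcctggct
CDC6: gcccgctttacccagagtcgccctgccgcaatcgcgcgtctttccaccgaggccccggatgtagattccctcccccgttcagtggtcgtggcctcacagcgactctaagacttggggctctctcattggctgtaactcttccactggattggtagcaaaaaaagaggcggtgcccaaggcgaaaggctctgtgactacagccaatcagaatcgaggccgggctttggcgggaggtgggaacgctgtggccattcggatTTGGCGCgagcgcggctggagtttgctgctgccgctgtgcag
CDT1: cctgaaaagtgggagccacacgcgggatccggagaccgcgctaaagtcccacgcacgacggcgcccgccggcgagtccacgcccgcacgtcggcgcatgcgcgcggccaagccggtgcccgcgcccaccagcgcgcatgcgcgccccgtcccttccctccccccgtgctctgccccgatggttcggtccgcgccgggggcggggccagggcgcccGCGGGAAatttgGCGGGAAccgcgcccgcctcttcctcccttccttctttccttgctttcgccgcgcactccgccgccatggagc
ORC6: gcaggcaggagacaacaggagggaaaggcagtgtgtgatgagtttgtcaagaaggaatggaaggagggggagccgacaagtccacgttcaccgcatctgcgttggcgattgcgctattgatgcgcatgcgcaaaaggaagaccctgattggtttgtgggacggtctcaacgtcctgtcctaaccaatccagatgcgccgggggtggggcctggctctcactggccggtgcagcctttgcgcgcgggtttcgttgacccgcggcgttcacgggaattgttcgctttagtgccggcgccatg

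RefSeq gave 12 windows for the 10 members, with a second start for *ORC4* and *GMNN*. Searched on both strands, the 8-letter E2F motif (TTTCCCGC, TTTGGCGC, TTTCGCGC or TTTGCCGC) was found in 4 of 10 members, *ORC3*, *CDC6*, *CDT1* and *GMNN*, and in 3.3% of 35116 promoters of the same length. The 7-letter core, which lacks the first T and was chosen after these promoters had been read, also matched *ORC1* and thus 5 of 10 members, and 13.0% of all promoters. In *ORC1* a pair of core matches on opposite strands overlap, starting 22 and 19 bases before the start site. In *CDT1* the 2 core matches start 35 and 23 bases before it, and the first of them holds the 8-letter motif. The match of *CDC6* lies just inside the transcript, with the 8-letter motif starting at its base 8, and that of *ORC3* starts 12 bases before the start site. The CHR motif TTTGAA, an element of late cell cycle genes, was found in *DBF4* alone, 3 bases before the start, and in 15.2% of all promoters. No E2F match was found in *ORC2*, *ORC4*, *ORC5*, *ORC6* or *DBF4*. These are letter matches in a fixed window and do not show that a factor binds there.

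In A549, *ORC1*, *CDC6*, *CDT1* and *ORC6* were 5.48- to 17.3-fold lower with AMG900, and the core subunits *ORC2* to *ORC5* less than 2-fold. With an FDR threshold of 0.01 (edgeR quasi-likelihood test, Benjamini-Hochberg adjustment over 13174 genes), 7 of 10 members were lower with AMG900, none was higher and 3 did not pass. Of all genes tested, 17.8% were lower and 17.2% higher. The median log2 fold change was -1.80 over the members and -0.01 over all genes tested. In 8 of 10 members every AMG900 library lay below every DMSO library, and in none above, against 18.0% of genes below and 26.0% above among 13153 tested and listed for both lines.

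*ORC1*, the cycling subunit that helps ORC to encircle DNA, stood at 19.5, 24.0, 24.2 and 23.9 CPM in the 4 A549 DMSO libraries and at 0.942, 1.42, 1.30 and 1.86 CPM in the 4 AMG900 libraries. The groups lay far apart, and only 10 to 28 reads per AMG900 library remained. The log2 fold change was -4.11 ± 0.18 (SE), a 17.3-fold decrease (edgeR adjusted p = 2.5e-10), which ranked 11 from the lowest among the 13174 genes. *ORC6*, the loosely bound subunit, was at 29.7, 32.0, 35.2 and 35.9 CPM with DMSO and at 7.63, 6.60, 4.93 and 6.84 CPM with AMG900. It fell 5.48-fold (log2 fold change -2.45 ± 0.14, edgeR adjusted p = 4.4e-09), again with no overlap.

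The core subunits were 1.37- to 1.98-fold lower in A549, and 1 of these 4 passed the threshold. *ORC3* was at 13.1, 11.7, 8.0 and 11.0 CPM with DMSO and at 6.97, 6.46, 5.80 and 3.92 CPM with AMG900, and it fell by 0.98 on the log2 scale (SE 0.21, edgeR adjusted p = 0.0015). The groups of *ORC3* did not overlap. *ORC5*, one of the ATP-binding subunits, was at 13.3, 8.60, 6.85 and 5.64 CPM with DMSO and at 4.80, 3.69, 5.53 and 5.18 CPM with AMG900 (log2 fold change -0.85 ± 0.25, edgeR adjusted p = 0.013), and it passed without DMSO replicate 4 (-1.03, edgeR adjusted p = 0.0042). Its groups just failed to touch, and its DMSO libraries were the more scattered. That was the only 1 of 8 fits without a single A549 library in which *ORC5* passed (edgeR adjusted p up to 0.043). Without DMSO replicate 1 its log2 fold change was -0.61 (edgeR adjusted p = 0.017). *ORC2* was at 8.20, 4.30, 1.87 and 4.44 CPM with DMSO and at 3.39, 1.99, 2.01 and 2.66 CPM with AMG900 (log2 fold change -0.90 ± 0.37, edgeR adjusted p = 0.054). DMSO replicate 3 of *ORC2* lay below every AMG900 library, and without it the log2 fold change was -1.20 (edgeR adjusted p = 0.0072). *ORC2* passed in only this 1 of the 8 fits without a single library (edgeR adjusted p up to 0.13). Without DMSO replicate 1, its highest library, the log2 fold change was -0.59 (edgeR adjusted p = 0.11). *ORC4* was at 2.66, 4.82, 4.97 and 4.78 CPM with DMSO and at 3.67, 3.97, 3.63 and 2.52 CPM with AMG900. Its groups overlapped through DMSO replicate 1, and the log2 fold change of -0.45 had a 95% interval from -0.96 to 0.06 (edgeR adjusted p = 0.14).

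*CDC6*, the ATPase that closes the ORC ring and recruits the helicase, was at 63.2, 59.1, 61.1 and 60.4 CPM in A549 with DMSO and at 7.25, 5.82, 6.83 and 6.64 CPM with AMG900. The libraries within each group were nearly equal, and *CDC6* fell 9.70-fold (log2 fold change -3.28 ± 0.11, edgeR adjusted p = 1.4e-11). *CDT1*, which escorts MCM to the origin, was at 68.3, 54.1, 60.9 and 63.4 CPM with DMSO and at 8.66, 8.51, 10.3 and 8.70 CPM with AMG900. It fell 7.14-fold (log2 fold change -2.84 ± 0.11, edgeR adjusted p = 9.3e-11). *GMNN*, whose protein inhibits CDT1, was at 29.5, 12.3, 12.5 and 17.1 CPM with DMSO and at 4.61, 4.97, 7.10 and 8.76 CPM with AMG900. It fell 2.82-fold (log2 fold change -1.50 ± 0.27, edgeR adjusted p = 0.00043), and DMSO replicate 1 was its highest library. *DBF4* was at 3.32, 4.90, 4.47 and 4.20 CPM with DMSO and at 1.41, 0.993, 0.759 and 1.13 CPM with AMG900, where 14 to 17 reads were counted. It fell 4.29-fold (log2 fold change -2.10 ± 0.28, edgeR adjusted p = 2.6e-05). Without A549 DMSO replicate 1 the count of lower members was again 7. Over all genes, 2978 were then lower and 2876 higher, against 2340 and 2265 with all 8 libraries.

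**Figure D1:**
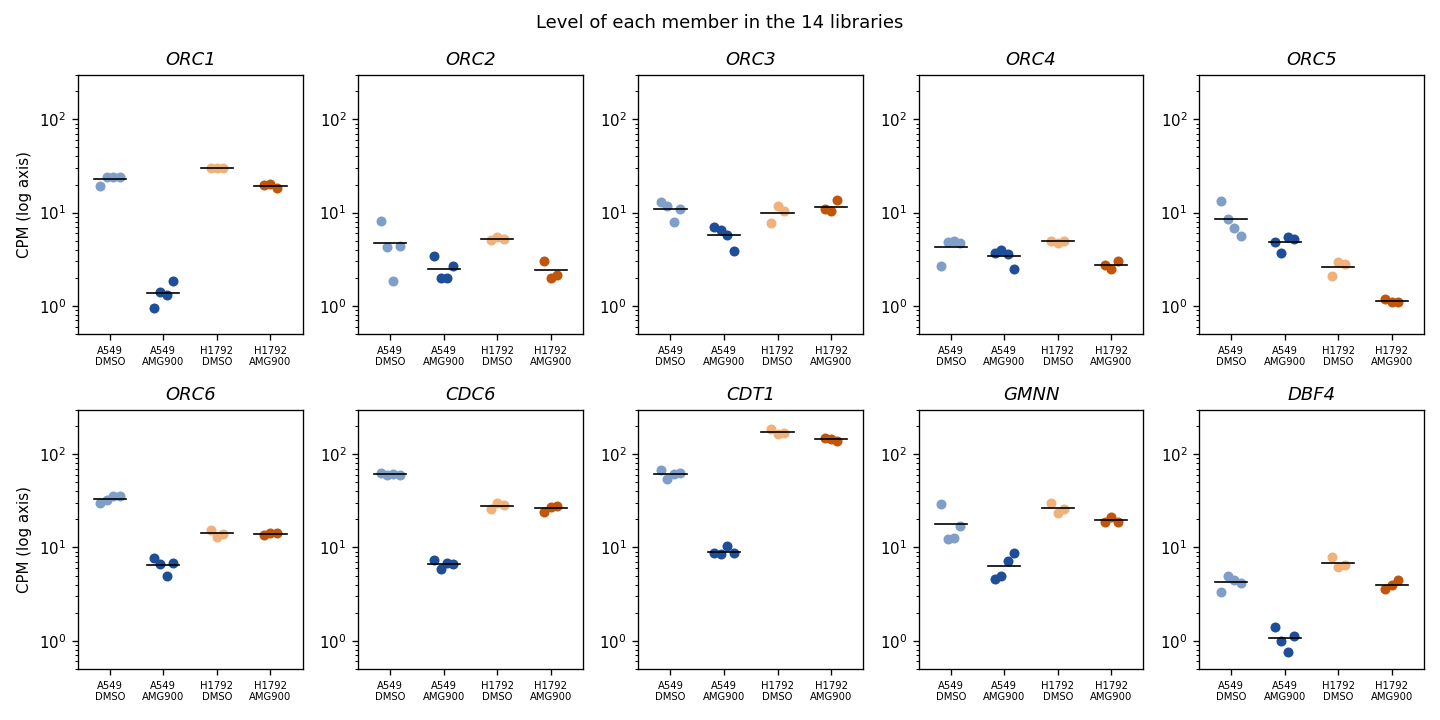
Level of each member in CPM (log axis) in the 14 libraries, with 1 point per library and a line at the mean of each group. *ORC1*, *ORC6*, *CDC6* and *CDT1* dropped with AMG900 in A549, to 1.38, 6.50, 6.63 and 9.04 CPM on average, while the groups of *ORC6* and *CDC6* overlapped in H1792.

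In H1792 the order of the members was different: without GC correction *ORC5*, *ORC2* and *ORC4* had the largest decreases, and *CDC6* and *ORC6* did not pass the test. With AMG900, 7 of 10 members were lower, none was higher and 3 did not pass (edgeR, 15017 genes tested), where 18.8% of all genes were lower and 16.2% higher. The median log2 fold change was -0.54 over the members and 0.01 over all genes. With a correction for GC content, described further on, 4 members were lower and 1 was higher, beside 3316 lower and 2251 higher genes among the 15017. *ORC5* (-0.90), *ORC2* (-0.76) and *ORC1* (-0.71) then had the largest decreases, and *ORC4* (-0.31) did not pass. In 7 of 10 members every AMG900 library lay below every DMSO library, and in none above, against 29.3% of the 15017 genes below and 30.3% above.

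*ORC2* was at 5.05, 5.54 and 5.21 CPM in the 3 H1792 DMSO libraries and at 3.06, 1.99 and 2.15 CPM in the 3 AMG900 libraries, 2.18-fold lower (log2 fold change -1.12 ± 0.17, edgeR adjusted p = 0.00038). *ORC5* was at 2.07, 2.94 and 2.80 CPM with DMSO and at 1.20, 1.09 and 1.10 CPM with AMG900, 2.29-fold lower (log2 fold change -1.20 ± 0.20, edgeR adjusted p = 0.00069). *ORC4* went from 4.97, 4.76 and 5.00 CPM to 2.75, 2.50 and 3.02 CPM, 1.78-fold lower (log2 fold change -0.83 ± 0.13, edgeR adjusted p = 0.00043). None of these 3 subunits overlapped between treatments. *ORC3*, the remaining core subunit, was at 7.78, 11.7 and 10.4 CPM with DMSO and at 11.0, 10.3 and 13.5 CPM with AMG900, with overlapping groups and a change of 0.22 on the log2 scale (95% interval -0.12 to 0.56, edgeR adjusted p = 0.25).

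*ORC1* was at 30.2, 30.2 and 30.0 CPM in H1792 with DMSO and at 19.8, 20.2 and 18.2 CPM with AMG900. It fell 1.55-fold (log2 fold change -0.64 ± 0.07, edgeR adjusted p = 5.1e-05). *DBF4* was at 7.87, 6.21 and 6.49 CPM with DMSO and at 3.55, 3.93 and 4.46 CPM with AMG900, 1.73-fold lower (log2 fold change -0.79 ± 0.14, edgeR adjusted p = 0.00078). *ORC1* and *DBF4* thus passed the test in both lines, each without overlap, as did *GMNN* and *CDT1*, given next. With GC correction, *DBF4* and *GMNN* no longer passed in H1792 (edgeR adjusted p = 0.12 and 0.081).

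*GMNN* was at 30.2, 23.2 and 25.6 CPM with DMSO and at 18.6, 21.4 and 18.8 CPM with AMG900, 1.35-fold lower (log2 fold change -0.43 ± 0.10, edgeR adjusted p = 0.0052). *CDT1* was at 184, 163 and 170 CPM with DMSO and at 150, 145 and 139 CPM with AMG900, 1.19-fold lower (log2 fold change -0.25 ± 0.06, edgeR adjusted p = 0.005). Both decreases were small, and both lost significance when single libraries were left out. The *CDT1* call was lost without DMSO replicate 3 or without any 1 of the 3 AMG900 libraries (edgeR adjusted p up to 0.030), and the *GMNN* call without DMSO replicate 3, AMG900 replicate 1 or AMG900 replicate 3 (up to 0.032).

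*CDC6* was at 25.8, 29.6 and 28.7 CPM in H1792 with DMSO and at 23.9, 27.3 and 27.6 CPM with AMG900, with a log2 fold change of -0.10 (95% interval -0.29 to 0.09, edgeR adjusted p = 0.34). *ORC6* was at 15.5, 13.0 and 14.1 CPM with DMSO and at 13.7, 14.3 and 14.2 CPM with AMG900, with a log2 fold change of -0.02 (95% interval -0.21 to 0.18, edgeR adjusted p = 0.89). Both intervals lie far above the decreases measured in A549.

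**Figure D2:**
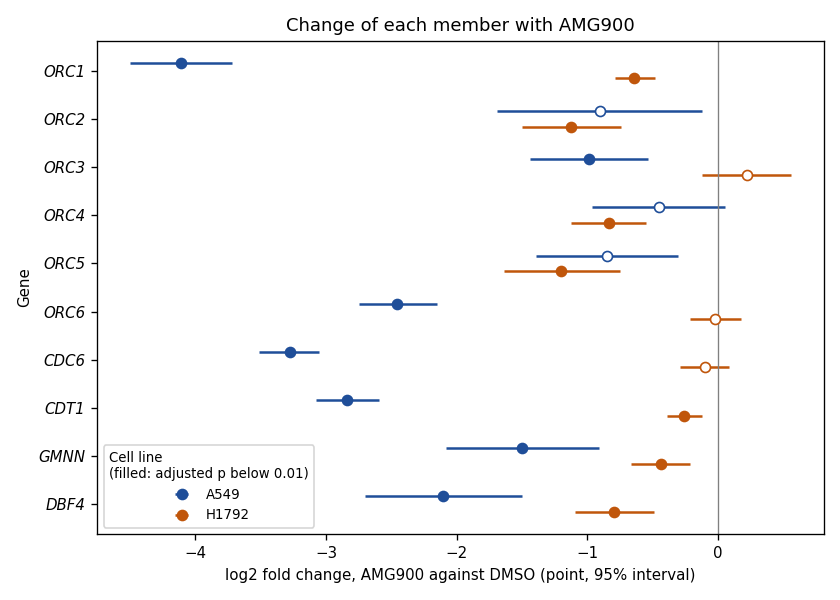
Log2 fold change of each member, AMG900 against DMSO, in A549 (blue) and H1792 (orange), with bars for the 95% interval and filled points for an adjusted p below 0.01. The intervals of *ORC2*, *ORC4* and *ORC5* overlap between the lines and those of the other 7 members do not, with the widest gaps in *ORC1*, *CDC6*, *CDT1* and *ORC6*.

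The changes with AMG900 were compared between lines by an interaction term in a fit over all 14 libraries. In 6 of 10 members the change was higher in H1792 and in none was it lower, where 5.37% of the 14769 genes tested were higher and 9.17% lower. The median difference was 1.19 over the members and -0.10 over all genes. The difference (H1792 minus A549) was 3.41 ± 0.19 for *ORC1*, 3.10 ± 0.13 for *CDC6*, 2.50 ± 0.12 for *CDT1* and 2.37 ± 0.18 for *ORC6*, with edgeR adjusted p-values of 1e-10, 2.9e-12, 1.4e-11 and 7.2e-09. It was 1.26 ± 0.29 for *DBF4* (edgeR adjusted p = 0.0031) and 1.13 ± 0.27 for *ORC3* (edgeR adjusted p = 0.0051). *GMNN* differed by 0.96 ± 0.33 and did not pass (edgeR adjusted p = 0.039).

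The other core subunits showed no detectable difference between lines. The difference was -0.32 for *ORC2* (95% interval -1.23 to 0.58), -0.44 for *ORC4* (-1.01 to 0.13) and -0.43 for *ORC5* (-1.15 to 0.29), with edgeR adjusted p-values of 0.64, 0.26 and 0.39. These intervals are wide, and each reaches past a 2-fold lower value in H1792. The calls of *ORC1*, *ORC6*, *CDC6* and *CDT1* held without each of the 14 libraries in turn. *DBF4* passed in 11 of these 14 fits and lost its call without A549 AMG900 replicate 3, H1792 DMSO replicate 3 or H1792 AMG900 replicate 3 (edgeR adjusted p up to 0.012). *ORC3* passed in 6 and lost its call without A549 DMSO replicate 2 or 4, A549 AMG900 replicate 3 or 4, or replicate 1 or 3 of either H1792 group (up to 0.020).

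With DMSO, the lines themselves differed in 6 members. Of 14769 genes tested, 34.2% were higher in H1792 and 31.9% lower, so calls for 3 members higher and 3 lower are close to the background. *CDT1* was 2.81-fold higher in H1792 (172 ± 10.5 CPM, SD, n = 3) than in A549 (61.7 ± 5.89 CPM, SD, n = 4), with a log2 difference of 1.49 ± 0.08 (edgeR adjusted p = 2.6e-12). *DBF4* was 1.59-fold higher (edgeR adjusted p = 0.0026) and *ORC1* 1.30-fold higher (edgeR adjusted p = 0.0048). *ORC5* was 3.14-fold lower in H1792 (2.60 ± 0.467 against 8.60 ± 3.36 CPM, edgeR adjusted p = 5.6e-06). *ORC6* was 2.35-fold lower (edgeR adjusted p = 2.4e-08) and *CDC6* 2.17-fold lower (edgeR adjusted p = 1.2e-09). *GMNN* was 1.56-fold higher and did not pass (edgeR adjusted p = 0.014), but did without A549 DMSO replicate 1 (log2 difference 0.91, edgeR adjusted p = 5.7e-05). It passed in only this 1 of the 7 fits without a single DMSO library (edgeR adjusted p up to 0.062). The call for *ORC1* was lost without H1792 DMSO replicate 2 or replicate 3 and that for *DBF4* without H1792 DMSO replicate 1.

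After AMG900, every H1792 AMG900 library was above every A549 AMG900 library for 7 members and below for *ORC5*, while *ORC2* and *ORC4* overlapped. Of the 14769 genes tested, 37.9% lay above in this way and 39.3% below, so 8 of 10 members without overlap in either direction are close to the background. *CDT1* averaged 145 ± 5.37 CPM in H1792 and 9.04 ± 0.842 CPM in A549, and *ORC1* 19.4 ± 1.04 and 1.38 ± 0.378 CPM (SD). Across all 4 groups, *CDT1* ran from H1792 with DMSO through H1792 with AMG900 and A549 with DMSO down to A549 with AMG900 with no overlap between neighbours. *ORC5* ran from A549 with DMSO through A549 with AMG900 and H1792 with DMSO to H1792 with AMG900, also with no overlap. *ORC1* and *DBF4* shared the order H1792 DMSO, A549 DMSO, H1792 AMG900, A549 AMG900, in which the middle pair overlapped. *CDC6* and *ORC6* shared the order A549 DMSO, H1792 DMSO, H1792 AMG900, A549 AMG900, in which only both H1792 groups overlapped.

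To compare levels between genes, CPM were divided by the length of the canonical transcript in kb. In A549 with DMSO the highest levels per kb were those of *CDT1* (23.1), *ORC6* (20.6), *GMNN* (14.1) and *CDC6* (13.4), neighbours in this order overlapped, and the lowest was that of *ORC4* (0.658). *ORC1* stood at 7.34 CPM per kb, above *ORC3* (4.38), *ORC2* (1.10) and *ORC4* and overlapping with *ORC5* (4.47). With AMG900 *ORC1* was at 0.442 CPM per kb, the lowest mean of the 6 subunits, although it overlapped with *ORC4* (0.527) and *ORC2* (0.585). In H1792 *ORC1* was the highest subunit with DMSO (9.66 CPM per kb) and second to *ORC6* with AMG900 (6.22 against 8.72). *CDT1* led in H1792 under both treatments (64.7 and 54.3 CPM per kb), and *ORC4* was the lowest under both (0.750 and 0.421).

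The balance of *CDT1* and its inhibitor was read from the ratio of their counts within each library, which does not depend on scaling. In A549 with DMSO the ratio of *CDT1* to *GMNN* counts was 3.83 ± 1.11 (SD, n = 4, range 2.32 to 4.88), and with AMG900 it was 1.51 ± 0.387 (n = 4, range 0.992 to 1.88). In H1792 it was 6.59 ± 0.467 with DMSO (n = 3, range 6.10 to 7.03) and 7.41 ± 0.635 with AMG900 (n = 3, range 6.78 to 8.05). The ratio was thus lower in every A549 AMG900 library than in any A549 DMSO library, while the ranges in H1792 overlapped. On the log2 scale its mean moved by -1.33 in A549 and by 0.17 in H1792. The ratio is not corrected for GC content, which is 64.3% in *CDT1* and 43.6% in *GMNN*. With the GC correction described further on, *CDT1* and *GMNN* changed by -3.27 and -1.23 in A549. In H1792 they then changed by -0.60 and -0.26. With the correction *CDT1* thus fell more than *GMNN* in both lines, so the direction in H1792 depends on it. DMSO replicate 1 had the lowest ratio of the A549 DMSO libraries.

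Without GC correction, the level of *ORC1* relative to the mean of *ORC2* to *ORC5* showed the same split of the lines. The log2 difference was 1.86 ± 0.428 in A549 with DMSO and -1.49 ± 0.55 with AMG900, with no overlap. In H1792 it was 2.56 ± 0.149 with DMSO and 2.64 ± 0.183 with AMG900, with overlapping ranges. *ORC6* relative to the same 4 subunits went from 2.39 ± 0.414 to 0.723 ± 0.28 in A549 and from 1.47 ± 0.275 to 2.18 ± 0.154 in H1792. Relative to the core, both peripheral subunits were lower with AMG900 in A549, and *ORC6* was higher with it in H1792, where *ORC2*, *ORC4* and *ORC5* fell. The core subunits are poorer in GC than *ORC1* (50.7%) and *ORC6* (45.9%). With GC correction, *ORC1* was at -0.71 and *ORC6* at 0.06 in H1792, and *ORC2* to *ORC5* were at -0.76, 0.63, -0.31 and -0.90. The differences from the core were not recomputed with these values, so those given for H1792 are without the correction. With it, *ORC6* lay above *ORC2*, *ORC4* and *ORC5* and below *ORC3*.

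**Figure D3:**
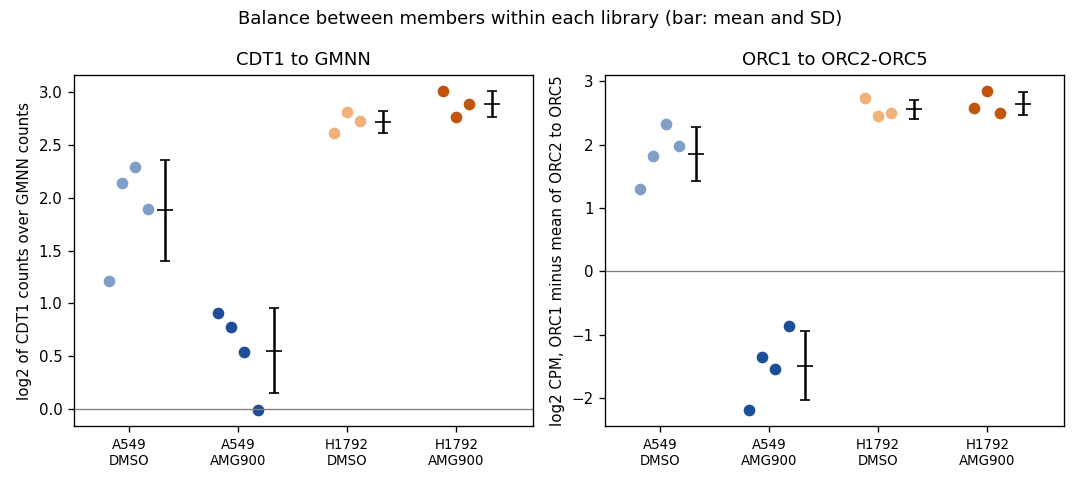
Log2 of the ratio of *CDT1* to *GMNN* counts (left) and log2 CPM of *ORC1* minus the mean of *ORC2* to *ORC5* (right) in each library of the 4 groups, with the mean and SD beside the points. Both measures were lower with AMG900 in A549, where the means moved by -1.33 and -3.34, and overlapped between treatments in H1792. Neither measure is corrected for GC content.

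GC content moved with the fold changes and bears on the core subunits. GC-rich transcripts had higher fold changes than GC-poor ones in both lines (Spearman's rho across genes 0.499 in A549 and 0.481 in H1792, a description, since genes do not replicate a condition), whereas rho was -0.080 for the interaction. *ORC4* (37.4% GC), *DBF4* (37.7%), *ORC3* (39.2%), *ORC2* (40.0%) and *ORC5* (41.2%) are poor in GC, *ORC1* is at 50.7% and *CDT1* at 64.3%. After a correction of each library for GC content, the members lower in A549 were 6, since *ORC3* no longer passed (log2 fold change -0.53, edgeR adjusted p = 0.034). Of the 13174 genes tested, 2344 were lower and 1909 higher with this correction. *ORC2*, *ORC4* and *ORC5* were then at -0.46, 0.04 and -0.45. *ORC1*, *CDC6*, *CDT1* and *ORC6* were at -4.15, -3.09, -3.27 and -2.32 and passed as before.

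In H1792 the correction changed more calls. *ORC4*, *DBF4* and *GMNN* no longer passed, at -0.31, -0.30 and -0.26 (edgeR adjusted p = 0.064, 0.12 and 0.081). *ORC2* and *ORC5* still did, at -0.76 and -0.90 (edgeR adjusted p = 0.0029 and 0.002). The decrease of *CDT1* was larger, at -0.60 (edgeR adjusted p = 3.7e-06), that of *ORC1* was -0.71, and *ORC3* became higher with AMG900 by 0.63 (edgeR adjusted p = 0.0012). The corrected count was 4 members lower and 1 higher, beside 3316 lower and 2251 higher genes of 15017. For the interaction, the same number of members passed with the correction, 6, beside 1378 higher and 1125 lower genes of 14769. The corrected differences were 3.50 for *ORC1*, 3.14 for *CDC6*, 2.73 for *CDT1* and 2.41 for *ORC6*. Whether the GC trend is technical was not tested.

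**Figure D4:**
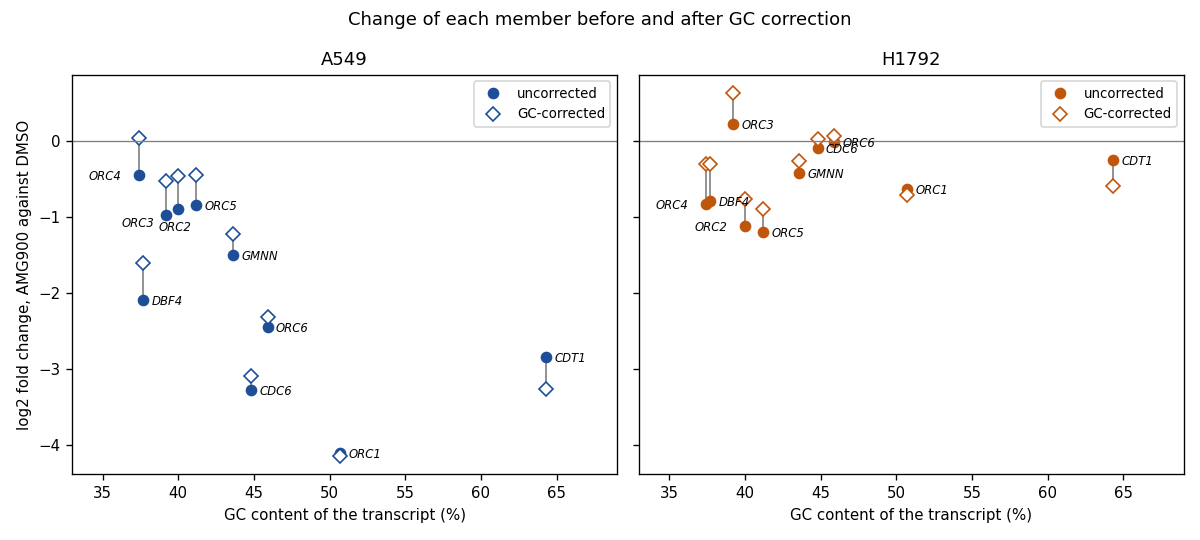
Log2 fold change of each member with AMG900 (vertical axis) against the GC content of its transcript in percent, in A549 (left) and H1792 (right), with filled circles before and open diamonds after GC correction. The GC-poor members *ORC2*, *ORC3*, *ORC4*, *ORC5* and *DBF4* moved upward in both lines, *CDT1* moved downward, and *ORC1* hardly moved.

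The genes of the helicase that is loaded at origins fell with the members in A549. All 6 *MCM2* to *MCM7* genes were lower there (median log2 fold change -2.36), with *MCM6* (-2.60 ± 0.10) and *MCM4* (-2.47 ± 0.07) lowest and *MCM7* (-2.18 ± 0.07) and *MCM3* (-1.78 ± 0.10) highest. In H1792, 4 of 6 were lower (median -0.23): *MCM6* was at -0.77 ± 0.07, *MCM3* at -0.24 ± 0.05 and *MCM7* at -0.22 ± 0.05, while *MCM4* was at -0.04 ± 0.05 and did not pass (edgeR adjusted p = 0.58). With GC correction 5 of 6 were lower in H1792 (median -0.39), the added gene being *MCM5* (-0.35, edgeR adjusted p = 5.1e-05). The interaction was higher in H1792 for all 6. For this list and those below, 17.8% of all genes tested were lower and 17.2% higher in A549. In H1792 18.8% were lower and 16.2% higher, and the interaction was higher in H1792 for 5.37%. The median log2 fold change over all genes was -0.01 in A549 and 0.01 in H1792. These shares and medians are without GC correction. With it, 2344 genes were lower and 1909 higher of 13174 in A549, and 3316 and 2251 of 15017 in H1792. The corrected medians over all genes were -0.01 and -0.02.

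Of 18 origin firing genes, 16 were tested in A549, and 14 were lower and none higher (median -2.17). *CCNA2*, the S phase cyclin, changed by -4.63 on the log2 scale and *MCM10*, which helps to start the helicase, by -4.33 (edgeR adjusted p = 1.2e-08 and 9.3e-12). *CCNE1*, the G1/S cyclin, was at -0.36 ± 0.12 and *CDC7*, the kinase that DBF4 activates, at -1.47 ± 0.48, and neither passed (edgeR adjusted p = 0.024 and 0.021). *CDC7* rested on 4 to 61 counts per A549 library. In H1792 9 of 18 were lower and 1 was higher (median -0.46). *CDC7* was lower there (-0.89 ± 0.18, edgeR adjusted p = 0.0021), as was *DBF4*. The higher gene, named after its value was seen, was *DBF4B*, a relative of *DBF4*, at 0.40 in H1792 and -1.85 in A549 (edgeR adjusted p = 0.00089 and 4.5e-08). With GC correction none of the 18 was higher in H1792, since *DBF4B* was at 0.20 (edgeR adjusted p = 0.043). *CDC7* in H1792 then did not pass (-0.43, edgeR adjusted p = 0.04), and *CCNE1* was lower in both lines (-0.44 and -0.30, edgeR adjusted p = 0.0029 and 0.003). The interaction was higher in H1792 for 13 of 18.

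Of 12 genes tied to the turnover of licensing factors, 8 were lower in A549 (median -0.65) and 6 lower and 1 higher in H1792 (median -0.26). With GC correction 7 were lower in A549 (median -0.34) and 8 were lower and none higher in H1792 (median -0.27). *DTL*, the adaptor of the ligase that degrades CDT1 in S phase, fell by 3.74 in A549 (edgeR adjusted p = 2.8e-09) and was at -0.16 ± 0.08 in H1792 (edgeR adjusted p = 0.12). *CCNF*, whose product targets CDC6, changed by -1.98 in A549 and by -0.32 in H1792 (edgeR adjusted p = 4.4e-09 and 0.0014). *FZR1*, an activator of the ligase that degrades geminin in G1, was at -0.11 ± 0.08 in A549 (edgeR adjusted p = 0.27) and rose by 0.24 in H1792 (edgeR adjusted p = 0.0046). With GC correction *FZR1* was lower in A549 (-0.55, edgeR adjusted p = 7.1e-05) and no longer passed in H1792 (-0.10, edgeR adjusted p = 0.11). *FBXO31* was at 0.01 ± 0.10 and -0.20 ± 0.07 and passed in neither, but in both with GC correction (-0.32 and -0.48, edgeR adjusted p = 0.008 and 1.1e-05). The interaction was higher in H1792 for 3 of 12.

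Of 9 further cofactors 8 were tested, and 6 were lower in A549 and 3 in H1792, with none higher (medians -0.85 and -0.38). *MCM8*, an MCM relative of repair, fell by 2.52 in A549 (edgeR adjusted p = 2.3e-09) and was at -0.18 ± 0.10 in H1792 (edgeR adjusted p = 0.13). *RIF1*, which counteracts origin firing, fell in both lines (log2 fold change -1.51 and -1.15, edgeR adjusted p = 0.0015 and 0.00037). *LRWD1*, a protein bound to ORC, was at 0.06 ± 0.11 and 0.03 ± 0.10, and *MCIDAS*, a relative of geminin, at 0.01 ± 0.40 and -0.35 ± 0.23, and none of these passed. With GC correction *RIF1* passed in neither line (-0.97 and -0.56, edgeR adjusted p = 0.024 and 0.011) and *LRWD1* was lower in both (-0.38 and -0.30, edgeR adjusted p = 0.0014 and 0.0015). The interaction was higher in H1792 for 2 of 8.

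**Figure D5:**
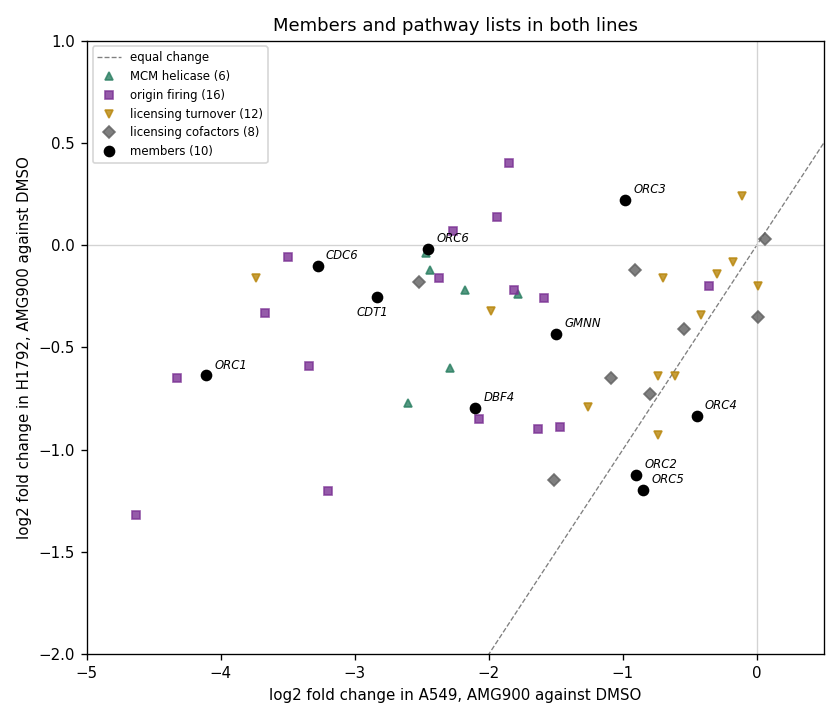
Log2 fold change with AMG900 in H1792 (vertical axis) against that in A549 (horizontal axis) for the 10 members (black, named) and the genes of 4 pathway lists tested in both lines, with a dashed line of equal change. The 16 origin firing and 6 MCM genes lie left of the line, as *CDC6*, *CDT1*, *ORC1* and *ORC6* do, while *ORC2*, *ORC4* and *ORC5* lie just right of it.

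The genes whose log2 CPM ran most like each member over the 14 libraries, which fall into 4 groups and share line, treatment and depth, differed between the members. Pearson's r is given as a description among 10855 to 10856 genes with a mean of at least 100 counts. *ORC1* was closest to *E2F2* (r = 0.994) and *WHSC1* (0.993), *CDC6* to *MELK* (0.994) and *ESPL1* (0.989), and *CDT1* to *RFC2* and *RNASEH2A* (both 0.996). *ORC6* was closest to *MCM4* (0.991) and *MCM3* (0.979), and *DBF4* to *GEMIN4* and *H2AFZ* (both 0.979). The core subunits had other neighbours: *DIMT1* (0.899) and *WDR75* (0.894) for *ORC2*, *MRPS14* (0.938) and *PNN* (0.926) for *ORC3*, *PFN2* (0.926) and *APH1A* (0.902) for *ORC4*, and *STARD3NL* (0.985) and *PLS3* (0.983) for *ORC5*. *GMNN* was closest to *FGFR1OP2* (0.961) and *MXD3* (0.959). No member was among the closest genes of another.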

How the data were processed

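RNA of A549 and H1792 was sequenced in 14 libraries on an Illumina NextSeq instrument. The counts are whole reads per gene symbol, deposited by the authors without normalization in 1 table per line. The submitters' processing notes name STAR, HTSeq, hg19 and GRCh37, and versions, annotation and strand setting are not given in the sources used here. Of 26760 entries, 28 in the H1792 table bear dates in place of symbols and were left out. The treatment protocol states 3 replicates, but 4 per A549 group are labelled and were used.

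R 4.3.3 with edgeR 4.0.16 (filterByExpr, TMM, quasi-likelihood F test, Benjamini-Hochberg over all genes tested, FDR threshold 0.01) and DESeq2 1.42.0 were used. Each line was fitted alone for AMG900 against DMSO. The interaction and the DMSO comparison came from 1 fit over 14 libraries. SE is the log2 fold change divided by the root of F, and 95% intervals use its t quantile. Log2 CPM used a prior count of 2. The biological coefficient of variation was 12.8% in A549 and 9.6% in H1792, which limits precision beside counting error. GC content and length are of the GENCODE canonical transcript on GRCh37 (22373 of 26732 symbols matched as current, 1228 as older), and the correction was a natural spline with 5 degrees of freedom per library. Promoters are from RefSeq on GRCh38.p14. The edgeR fits with the main settings were tested on simulated counts for each comparison. The GC correction, the other alternatives and the descriptive steps were not.

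Members and gene lists were chosen with earlier results of these data known. Named are all members, of each list the 2 genes highest and 2 lowest in A549, and the 2 genes closest to each member. Alternatives were DESeq2, its size factors, total counts, 2 other filters, an FDR of 0.05, a 2-fold minimum, GC correction, a replicate block and each library left out.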

Additional observations from a re-analysis of the deposited data

Results flagged for a closer look

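In A549, groups of 4 libraries were checked for a value far from the others by Dixon's test, which flags about 1 in 20 groups by chance, and 3 of 20 groups were flagged. *ORC1* was at 19.5 CPM in DMSO replicate 1, below the other DMSO libraries (23.9 to 24.2 CPM). *ORC4* was at 2.66 CPM in the same library, with 12 counts, against 4.78 to 4.97 CPM in the others. *CDT1* was at 10.3 CPM in AMG900 replicate 3, above the other AMG900 libraries (8.51 to 8.70 CPM).

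The change with AMG900 differed between the lines, by the interaction test over 14 libraries, for 6 members. The difference of the log2 fold changes, H1792 minus A549, was 3.41 for *ORC1*, 3.10 for *CDC6*, 2.50 for *CDT1*, 2.37 for *ORC6*, 1.26 for *DBF4* and 1.13 for *ORC3*. In *ORC3* the lines moved apart in sign, by -0.98 in A549 and 0.22 in H1792, where the second value did not pass the test.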

How the results depend on the processing

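The decreases of *ORC1*, *ORC6*, *CDC6*, *CDT1*, *GMNN* and *DBF4* in A549 and the interactions of *ORC1*, *ORC6*, *CDC6* and *CDT1* passed under every alternative and without each library. *ORC5* in A549 passed with DESeq2, total counts and no filter (edgeR or DESeq2 adjusted p = 0.0036 to 0.0065). Total counts ended the *ORC1* call between DMSO groups (0.27, edgeR adjusted p = 0.035).

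GC correction gave 4 lower and 1 higher member in H1792 and 1378 genes with a higher interaction. It turned the sign of values that passed no test: *ORC4* in A549 (0.04), *ORC6* (0.06) and *CDC6* (0.03) in H1792. The median of the turnover list between DMSO groups went from -0.13 to 0. A 2-fold minimum left 2 lower members in H1792 and 1 higher between DMSO groups. It left 695 higher and 769 lower genes in A549, 476 and 781 in H1792, 395 and 516 for the interaction, and 2973 and 2810 between DMSO groups. An FDR of 0.05 gave 3689 higher genes in H1792 and 1319 higher and 2297 lower for the interaction. DESeq2 gave 1416 genes with a higher interaction. Size factors of DESeq2 in edgeR moved the interaction split from 793 higher and 1355 lower to 1012 and 1033, and total counts to 988 and 1047. Leaving out 1 library gave 1382 to 3047 higher and 1853 to 3656 lower genes in H1792, the fewest without AMG900 replicate 1, and higher genes also numbered 1524 without DMSO replicate 3 and 1464 without AMG900 replicate 2. *ORC6* in H1792 then ran from -0.09 to 0.03 and *ORC3* between DMSO groups from -0.24 to 0.10. The cause of these changes was not tested.

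Replicate numbers did not pair the libraries (correlations of same-numbered deviations -0.062 to 0.042). With the replicate block, 7 members were lower in each line, 5 had a higher interaction (*DBF4* lost, edgeR adjusted p = 0.017), and between DMSO groups *GMNN* passed (0.73, edgeR adjusted p = 0.0093) and *DBF4* did not (0.012). Over all genes, 1984 of 13174 were then lower in A549, 2618 of 15017 were lower in H1792 and 604 of 14769 had a higher interaction. Depth limits *ORC1* in A549 with AMG900 (10 to 28 counts per library) and *ORC2*, *ORC4* and *DBF4* in A549 (12 to 83).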

Other observations

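Between the lines with DMSO, some genes outside the naming rule, chosen after their values were seen, had larger differences than most members. *PCNA*, the sliding clamp on which CDT1 is marked for degradation, differed by -2.30 on the log2 scale (H1792 minus A549, edgeR adjusted p = 5.7e-14). *KAT7*, a histone acetyltransferase that acts with ORC and CDT1, differed by -1.36 (edgeR adjusted p = 1.4e-09). *SKP2*, a ligase subunit that targets CDT1, was higher by 1.28 (edgeR adjusted p = 1.1e-08). With AMG900, the log2 fold change in A549 and H1792 was -0.80 and -0.73 for *KAT7*, -0.74 and -0.64 for *SKP2*, and -0.61 and -0.64 for *PCNA* (edgeR adjusted p = 0.0012 or less in each), and no interaction was detected for these 3 genes (edgeR adjusted p from 0.58 to 1). With GC correction *SKP2* in A549 was at -0.34 and no longer passed (edgeR adjusted p = 0.074).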
